A study of Homo sapiens with 6 samples.

Results

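Complement components and regulators are the proteins of a defence cascade in body fluids and the proteins that hold that cascade in check. Of the 62754 genes in the count table, 9 belonged to this group, and they were chosen by gene name: C1R, C1S, C3, CFB, C5, CD46, CD55, CD59 and SERPING1. They were measured by RNA sequencing in HK-2, an established line of immortalised human proximal tubular cells. All cells had been exposed to Cisplatin, a platinum drug that damages DNA and injures proximal tubules. The CP+siNC group was transfected with a negative-control siRNA, and the CP+siNAT10 group with siRNA against NAT10, an enzyme that acetylates cytidine in RNA. Each group had 3 libraries. The comparison asked what silencing NAT10 did to transcript levels in Cisplatin-exposed cells, and no library without Cisplatin was analysed here. The labels do not say whether the libraries of a group came from separate cultures, so the p-values measure only the spread between these samples, which may be technical.

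Complement can be started by the C1 complex, in which the proteases C1r and C1s are activated in turn, or by the alternative pathway, in which factor B joins cleaved C3 to form a protease that cleaves more C3. Both routes converge on C3 and then on C5, whose cleavage begins the assembly of the membrane attack complex. Host cells limit the cascade with membrane proteins such as CD46, CD55 and CD59 and with the plasma inhibitor C1-INH, encoded by SERPING1. The liver makes most plasma complement, but tubular epithelium also transcribes complement genes, and complement activation on tubules is known in kidney injury.

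Total counts were 19321665, 21602988 and 19464027 in CP+siNC replicates 1 to 3 and 20793709, 21531774 and 25192736 in CP+siNAT10 replicates 1 to 3. Levels are given as CPM, the usual count unit scaled to library size, after correction of that size by trimmed means of M values (TMM). NAT10 (ENSG00000135372, chr11:34105617-34147670), the target of the siRNA, was at 75.8, 71.4 and 73.2 CPM in CP+siNC and at 41.3, 40.5 and 42.4 CPM in CP+siNAT10. All CP+siNAT10 libraries were below all CP+siNC libraries, as the labels say. The log2 fold change of NAT10 was -0.82 (SE 0.0426, edgeR quasi-likelihood test, Benjamini-Hochberg adjusted p = 2.79e-15).

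Transcripts of the epithelial line were abundant. KRT8, an epithelial keratin, was the most abundant of 15 renal epithelial markers, whose summed level was 2114, 2138 and 2079 CPM in CP+siNC and 2052, 2041 and 2074 CPM in CP+siNAT10. KRT18, KRT19, CDH6 and PAX8 were also detected. Of the 15 markers 10 were tested, and 3 of these were called higher and 3 lower in CP+siNAT10, where 44.1% of all tested genes were called. LRP2, CUBN, ANPEP, MME and SLC34A1, which mark the differentiated proximal tubule, had at most 8 counts in any library. GGT1 and SLC5A2, also genes of that segment, were detected at 25.3 to 33.4 CPM and 8.31 to 11.7 CPM. The epithelial label was thus borne out by general epithelial genes, while of the proximal tubule genes some were detected and others were near 0. The hepatocyte genes ALB, APOA1 and TTR had 0 counts in every library. Among 3 endothelial markers none passed the filter on low counts, with PECAM1 the most abundant and a sum of 0.0531 to 0.514 CPM per library. The 5 fibroblast markers summed to 10.9, 11.6 and 10.4 CPM in CP+siNC and 13.1, 15.6 and 13.0 CPM in CP+siNAT10, and nearly all of it was COL1A1, which was called higher.

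The 5 leukocyte markers summed to 210, 199 and 217 CPM in CP+siNC and to 289, 266 and 269 CPM in CP+siNAT10. Nearly all of this sum was CD68, a lysosomal gene that is also transcribed outside the leukocyte lineage. PTPRC, the defining leukocyte gene, was between 0.363 and 1.33 CPM, and LYZ and ITGAM had at most 4 counts in any library. Of the 3 tested, CD68 and PTPRC were called higher in CP+siNAT10 and CD14 was not called (log2 fold change -0.029, edgeR quasi-likelihood test, Benjamini-Hochberg adjusted p = 0.945), where 44.1% of all tested genes were called, and the part of these transcripts in the complement values was not tested.

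Of the 9 complement genes, 8 had enough counts to be tested and SERPING1 did not. C1R, C1S and CD55 fell in CP+siNAT10, CFB and CD59 rose, and C3, C5 and CD46 did not pass the test. A gene was called when its adjusted p was under 0.05 in edgeR's quasi-likelihood test after Benjamini-Hochberg adjustment over all 19874 tested genes. The 5 called genes were 62.5% of the 8 tested, against 44.1% of all tested genes. C5 was under 10 CPM, and of the 7 others 5 were called (71.4%), against 61.7% of the 10076 genes whose mean was 10 CPM or more. By direction, 2 of 8 were higher and 3 of 8 were lower, against 21.8% and 22.3% of all tested genes. The groups did not overlap in 5 of the 8 genes, against 51.4% of all tested genes.

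The changes were small. The median log2 fold change of the 8 genes was -0.055, beside 0.0070 for all tested genes. None of the 8 passed a log2 fold change of 1 in size together with the limit on adjusted p, which 2.33% of all tested genes did. In bulk RNA of this kind, fewer cells with a transcript and less of it per cell cannot be told apart.

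**Figure D1:**
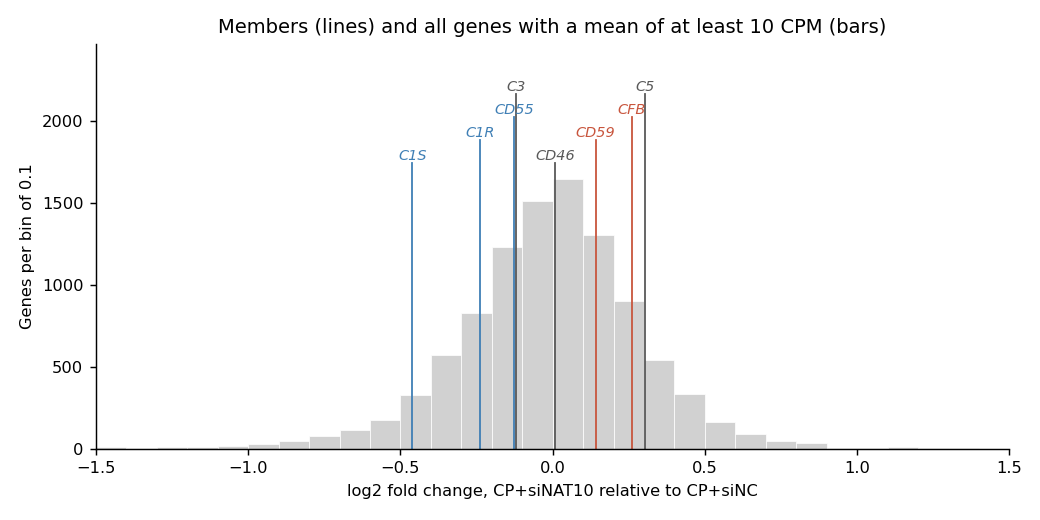
Bars count the genes whose mean was 10 CPM or more by their log2 fold change, CP+siNAT10 relative to CP+siNC, in bins of 0.1. Lines mark the 8 tested complement genes (red higher, blue lower, grey not past the limit, with C5 itself under 10 CPM), and they lie within the body of the distribution, C1S farthest to the left.

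Transcript levels of different genes were compared per gene length, as RPKM (CPM per kilobase, with the gene lengths of the count table). In CP+siNC the membrane regulators led on this scale, with a mean RPKM of 9.46 ± 0.216 for CD55, 9.04 ± 0.217 for CD59 and 6.39 ± 0.0318 for CD46 (SD, n = 3). The proteases of the C1 complex came next, with an RPKM of 5.59 ± 0.230 for C1S and 3.87 ± 0.220 for C1R. CFB followed at 3.02 ± 0.205, C3 at 1.27 ± 0.130 and C5 at 0.159 ± 0.0586 RPKM. In this order of RPKM the libraries of CD55 and CD59 overlapped, and those of the other neighbours did not. The order within the membrane regulators depended on the length used. With exon bases of GENCODE 29 as the length, chosen after seeing the data, CD55 was at 16.4, CD46 at 11.4 and CD59 at 9.21 CPM per kilobase in CP+siNC. The other 5 genes kept their order below these. The level of C5 also depended on the length, at 0.411 CPM per kilobase in CP+siNC and 0.499 in CP+siNAT10 with exon bases.

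With the table's lengths, the order of RPKM in CP+siNAT10 changed at 2 places. CD59 was at 9.96 ± 0.439 RPKM and CD55 at 8.66 ± 0.324, with every library of CD59 above every library of CD55, but with exon bases as the length CD55 stayed above CD59 (15.04 and 10.2 CPM per kilobase). CFB was at 3.60 ± 0.370 RPKM and C1R at 3.28 ± 0.188, and the libraries of these neighbours overlapped. With exon bases as the length they did not, with CFB at 3.60 CPM per kilobase or more and C1R at 3.42 or less. The other RPKM means in CP+siNAT10 were 6.42 ± 0.218 for CD46, 4.06 ± 0.183 for C1S, 1.17 ± 0.0455 for C3 and 0.193 ± 0.0185 for C5 (SD, n = 3). C5 was the lowest of the tested genes in both groups.

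**Figure D2:**
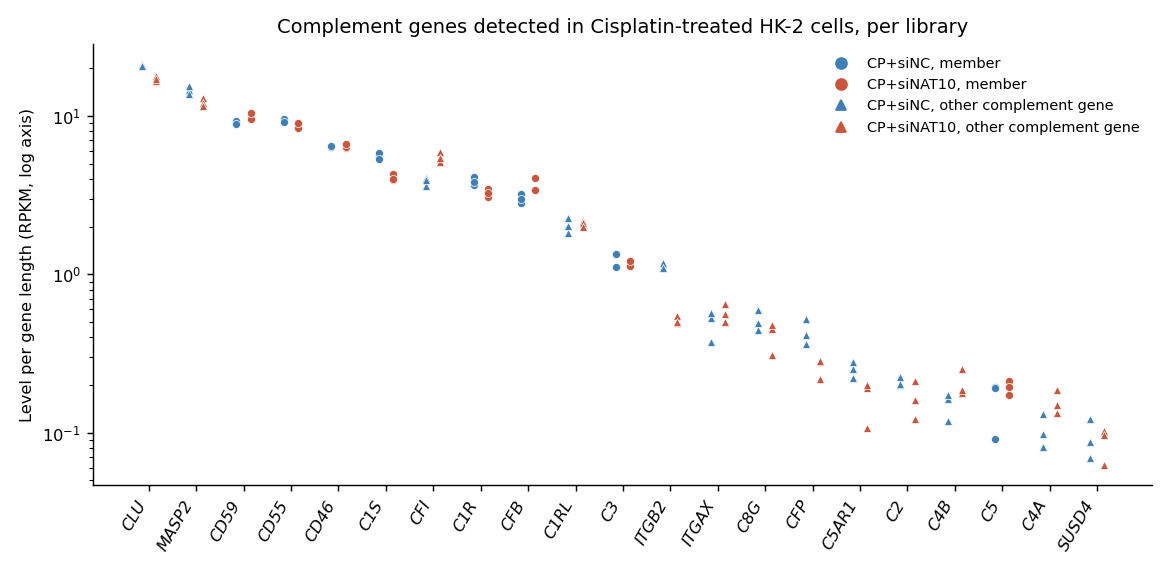
Level per gene length (RPKM, log axis) of the 8 tested complement genes (circles) and 13 other complement genes (triangles), 1 point per library, CP+siNC in blue and CP+siNAT10 in red. At the lengths of the count table CLU and MASP2 lie above all 8, the membrane regulators CD59, CD55 and CD46 come next, and C5 lies near the lower end.

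C1R and C1S, neighbouring genes of the classical pathway, both fell. C1R (ENSG00000159403, chr12:7080214-7092493, minus strand) encodes the protease that cleaves C1s, and it was at 21.4, 23.9 and 22.1 CPM in CP+siNC and 18.0, 20.1 and 19.01 CPM in CP+siNAT10. Every CP+siNAT10 library was below every CP+siNC library. C1R had a log2 fold change of -0.24 (SE 0.0630, edgeR quasi-likelihood test, Benjamini-Hochberg adjusted p = 0.00252). C1R fell by 15.3%.

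C1S (ENSG00000182326, chr12:6988259-7070113, plus strand) encodes the protease that cleaves C4 and C2. Its level was 46.1, 48.4 and 44.6 CPM in CP+siNC and 32.7, 35.5 and 33.0 CPM in CP+siNAT10. The groups lay well apart, with the highest CP+siNAT10 library far below the lowest CP+siNC library. C1S had a log2 fold change of -0.46 (SE 0.0491, 95% interval -0.56 to -0.36, edgeR quasi-likelihood test, Benjamini-Hochberg adjusted p = 7.74e-09). It fell by 27.4%, the largest change among the 8 tested genes, and larger in size than in 89.2% of the genes with at least 10 CPM. Its span overlaps ENSG00000290146 on the same strand, which rose from 91.3, 91.7 and 102 CPM to 111, 109 and 104 CPM (log2 fold change 0.19, edgeR quasi-likelihood test, Benjamini-Hochberg adjusted p = 0.000526). How reads in overlapping genes were assigned is not given in the sources used here.

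The balance of the pair was compared within libraries. The ratio of C1R to C1S counts was 0.464, 0.493 and 0.495 in CP+siNC and 0.549, 0.568 and 0.576 in CP+siNAT10. All CP+siNAT10 ratios were above all CP+siNC ratios, a difference in means of 16.6%. This ratio and 3 other ratios of complement genes were chosen after the values were seen, so they are descriptions with no test. C1R shares 672 exon bases with C1RL on the same strand, 11.4% of its annotated exon bases. The share of C1R counts from those bases was not measured.

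Across the 6 libraries and 12304 genes with at least 5 CPM, the profiles nearest to C1S were those of FOXM1, RHPN1, GEN1, BLM and CMPK1. Likeness was measured as the root mean square difference in centred log2 CPM. The difference was 0.0165 for FOXM1, 0.0282 for RHPN1, 0.0283 for GEN1, 0.0300 for BLM and 0.0309 for CMPK1. FOXM1, a transcription factor of the cell cycle, had a log2 fold change of -0.47 and the other 4 lay between -0.44 and -0.47. Changes of this size were common: of the genes with a mean of 10 CPM or more, 329 lay between -0.5 and -0.4. A link between C1S and the genes named here was not tested.

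C3 (ENSG00000125730, chr19:6677704-6730562, minus strand) encodes the protein on which all routes converge. It was at 12.9, 15.5 and 15.6 CPM in CP+siNC and 13.4, 13.0 and 14.04 CPM in CP+siNAT10. CP+siNC replicate 1 was the lowest of all 6 libraries and the other CP+siNC libraries were the highest, so the groups overlapped. The log2 fold change of C3 was -0.12 (95% interval -0.28 to 0.040, edgeR quasi-likelihood test, Benjamini-Hochberg adjusted p = 0.224). Without CP+siNC replicate 1 it was -0.20 (edgeR quasi-likelihood test, Benjamini-Hochberg adjusted p = 0.0477), and across all settings tried this p ranged from 0.0477 to 0.513.

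CFB (ENSG00000243649, chr6:31945650-31952086, plus strand) encodes factor B, the protease of the alternative pathway. Its level was 15.03, 17.2 and 15.9 CPM in CP+siNC and 18.0, 18.0 and 21.4 CPM in CP+siNAT10. Every CP+siNAT10 library was above every CP+siNC library, with CP+siNAT10 replicate 3 the highest. CFB had a log2 fold change of 0.26 (SE 0.0741, edgeR quasi-likelihood test, Benjamini-Hochberg adjusted p = 0.00514), an increase of 19.7%. Without CP+siNAT10 replicate 3 the log2 fold change was 0.17 (edgeR quasi-likelihood test, Benjamini-Hochberg adjusted p = 0.0862), and across all settings this p ranged from 0.000887 to 0.0862.

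The annotated exons of CFB overlap those of ENSG00000244255, a locus on the same strand that spans C2 and CFB, over 2249 of 4997 bases (45.0%). That locus had 240, 327 and 277 counts in CP+siNC and 348, 355 and 505 counts in CP+siNAT10, close to the 283, 368 and 306 and the 379, 394 and 543 counts of CFB itself. It rose as CFB did, by a log2 fold change of 0.32 (edgeR quasi-likelihood test, Benjamini-Hochberg adjusted p = 0.00203). The reads of both genes cannot be told apart in these counts, so the level of CFB is uncertain.

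Relative to C3, its partner in the alternative pathway protease, CFB had higher counts in every CP+siNAT10 library than in any CP+siNC library. The ratio of CFB to C3 counts was 1.16, 1.11 and 1.02 in CP+siNC and 1.34, 1.39 and 1.53 in CP+siNAT10. The mean ratio was 28.98% higher in CP+siNAT10, a gap larger than the spread within either group.

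C5 (ENSG00000106804, chr9:120932987-121075184, minus strand) encodes the protein whose cleavage starts the terminal pathway, and it was sparse. It had 62, 33 and 62 counts in CP+siNC and 62, 78 and 83 counts in CP+siNAT10, which were 3.29, 1.54 and 3.22 CPM and 2.94, 3.57 and 3.27 CPM. CP+siNC replicate 2 was low and the other 5 libraries lay together, so the groups overlapped. The log2 fold change of C5 was 0.30 (95% interval -0.085 to 0.69, edgeR quasi-likelihood test, Benjamini-Hochberg adjusted p = 0.205). Without CP+siNC replicate 2 it was -0.00052 (edgeR quasi-likelihood test, Benjamini-Hochberg adjusted p = 0.999), and across all settings this p ranged from 0.0711 to 0.999. The value of C5 thus rested on that library, whose total was the highest of its group.

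**Figure D3:**
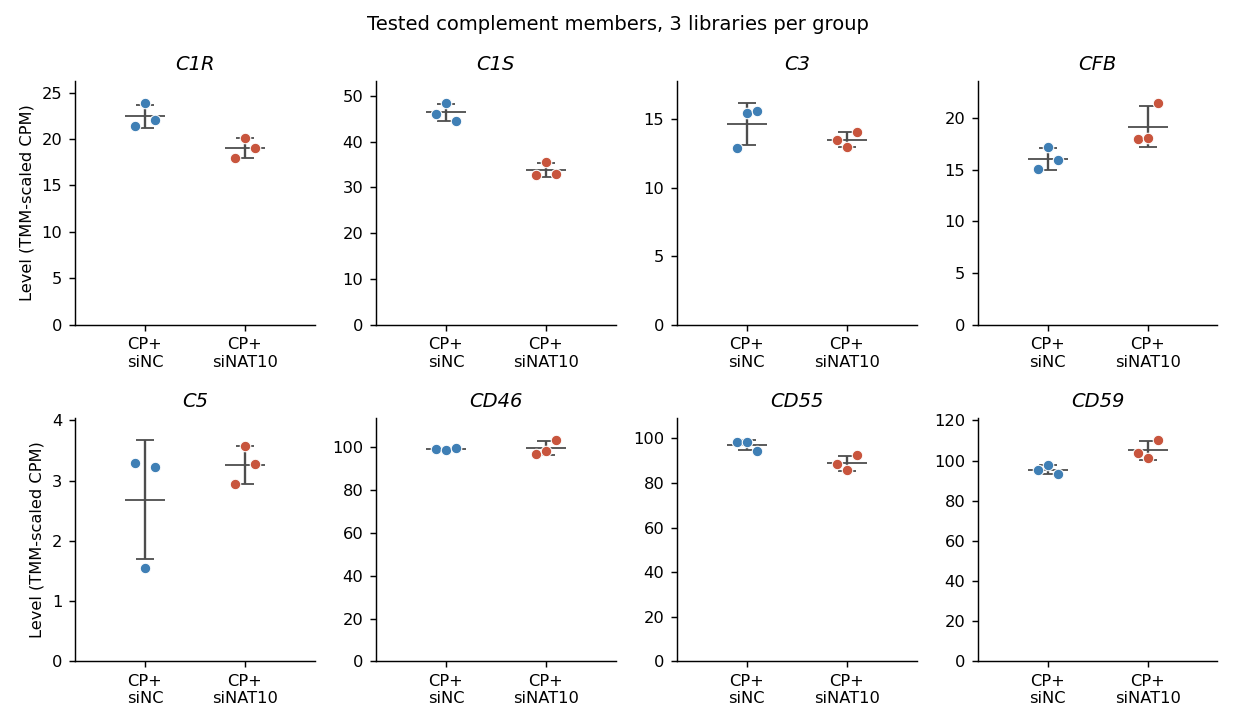
Level (TMM-scaled CPM, axes from 0) of each tested complement gene in the 3 libraries per group, CP+siNC in blue and CP+siNAT10 in red, with bars for the mean and SD. The groups are separate for C1R, C1S, CFB, CD55 and CD59 and overlap for C3, C5 and CD46.

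CD46 (ENSG00000117335, chr1:207752037-207795224, plus strand) encodes the membrane cofactor with which factor I cleaves C3b and C4b. It was at 99.2, 98.5 and 99.5 CPM in CP+siNC and 96.9, 98.3 and 103 CPM in CP+siNAT10. CP+siNAT10 libraries lay on both sides of the narrow CP+siNC range. The log2 fold change of CD46 was 0.0084 (95% interval -0.067 to 0.084, edgeR quasi-likelihood test, Benjamini-Hochberg adjusted p = 0.88). Its sign turned when CP+siNC replicate 2 was left out (-0.00095) or CP+siNAT10 replicate 3 (-0.019).

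CD55 (ENSG00000196352, chr1:207321519-207386804, plus strand) encodes a protein that speeds the decay of the C3 and C5 convertases. Its level was 98.5, 98.2 and 94.5 CPM in CP+siNC and 88.6, 85.6 and 92.3 CPM in CP+siNAT10. The groups did not overlap, but CP+siNAT10 replicate 3 came close to CP+siNC replicate 3. CD55 had a log2 fold change of -0.13 (SE 0.0382, edgeR quasi-likelihood test, Benjamini-Hochberg adjusted p = 0.00778), and fell by 8.41%. The call was lost with library size alone as the scaling (log2 fold change -0.089, adjusted p 0.0564) and without CP+siNAT10 replicate 2 (-0.10, adjusted p 0.0654), both in edgeR's quasi-likelihood test after Benjamini-Hochberg adjustment. Across all settings this p ranged from 0.00382 to 0.0654.

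CD59 (ENSG00000085063, chr11:33703010-33736423, minus strand) encodes the protein that blocks assembly of the membrane attack complex. It was at 95.2, 97.8 and 93.3 CPM in CP+siNC and at 104, 101 and 110 CPM in CP+siNAT10. All CP+siNAT10 libraries were above all CP+siNC libraries. CD59 had a log2 fold change of 0.14 (SE 0.0386, edgeR quasi-likelihood test, Benjamini-Hochberg adjusted p = 0.00365), an increase of 10.3%. CD59 shares 629 exon bases (6.07%) with ENSG00000284969 on the same strand, which had 5757 counts over the 6 libraries against 12878 for CD59. That gene had a log2 fold change of 0.12 and was not called (edgeR quasi-likelihood test, Benjamini-Hochberg adjusted p = 0.0754). The share of CD59 counts from those bases was not measured, so the level of CD59 is uncertain.

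CD55 and CD59, which share the same kind of membrane anchor, moved in opposite directions. The ratio of CD59 to CD55 counts was 0.967, 0.996 and 0.987 in CP+siNC and 1.17, 1.18 and 1.20 in CP+siNAT10. The groups lay far apart relative to their spread, with SDs of 0.0151 and 0.0129 and a difference in means of 20.4%. As CD59 rose and CD55 fell without overlap, this separation follows from their levels and is no added support. The ratio of CD46 to CD55 was 1.02 ± 0.0275 in CP+siNC and 1.12 ± 0.0268 in CP+siNAT10 (SD, n = 3), again without overlap. These ratios need no library size, but a ratio alone does not show which of its genes moved.

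**Figure D4:**
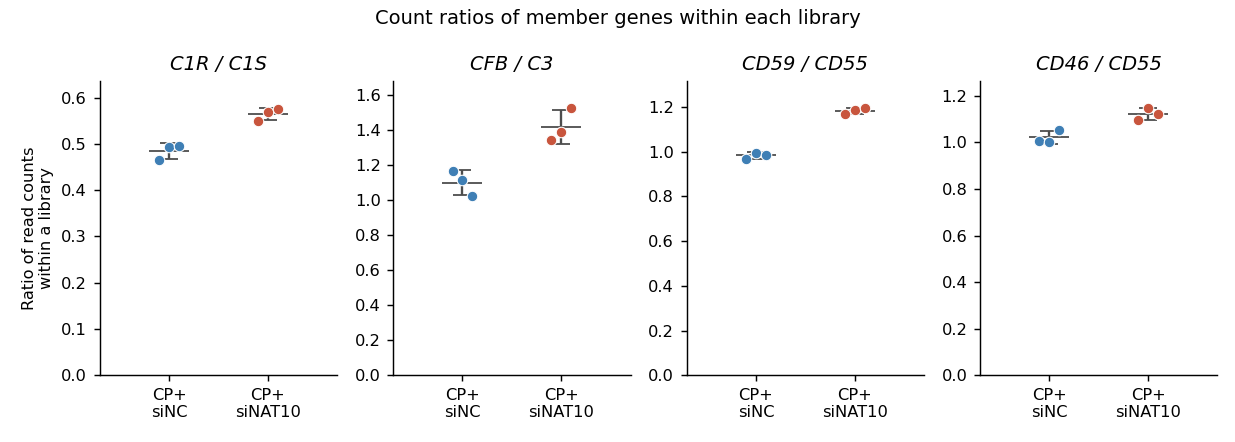
Ratio of read counts of 2 complement genes within each library (axes from 0), CP+siNC in blue and CP+siNAT10 in red, with bars for the mean and SD. In all 4 ratios every CP+siNAT10 library lies above every CP+siNC library, and the gap is widest relative to the spread for CD59 to CD55. The ratios were chosen after the values were seen.

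SERPING1 (ENSG00000149131, chr11:57597387-57619159, plus strand) encodes C1-INH, the inhibitor of C1r and C1s. It had 0 counts in 5 libraries and 1 count in CP+siNAT10 replicate 2. A count of 0 allows up to 3 counts, which was 0.118 to 0.159 CPM per library, counting error only. SERPING1 was therefore at or under the floor in both groups and no fold change is given. C1R and C1S, whose products it inhibits, were well above that floor in every library.

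CD55 and CD59 are held in the membrane by a glycosylphosphatidylinositol (GPI) anchor, and 28 genes that make or attach this anchor were tested. Of these, 7 were higher and 3 were lower, or 35.7% called against 44.1% of all tested genes, with a median log2 fold change of 0.091. Of the 13 with a mean of 10 CPM or more, 6 were called (46.2%), where 61.7% of all such genes were. PGAP1, which remodels the anchor after attachment, fell from 10.7 ± 0.377 to 7.24 ± 0.229 CPM (SD, n = 3, log2 fold change -0.57, edgeR quasi-likelihood test, Benjamini-Hochberg adjusted p = 4.28e-06). GPAA1, a subunit of the transamidase that attaches proteins to the anchor, rose from 40.9, 41.9 and 43.9 CPM to 53.4, 51.2 and 52.7 CPM (log2 fold change 0.31, edgeR quasi-likelihood test, Benjamini-Hochberg adjusted p = 1.36e-06). In both genes the groups were separate.

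DPM3, a subunit of the mannose donor synthase, rose by a log2 fold change of 0.40 (edgeR quasi-likelihood test, Benjamini-Hochberg adjusted p = 0.0479). PIGQ, part of the complex that starts the anchor, rose by 0.36 on the log2 scale (edgeR quasi-likelihood test, Benjamini-Hochberg adjusted p = 0.00675). The number of higher anchor genes depended on the libraries and the tool. It was 4 without CP+siNC replicate 1, 2 or 3, and 3 with DESeq2. The number of lower anchor genes was 1 without CP+siNAT10 replicate 2 and 1 with DESeq2.

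Complement genes beyond the 9 were mostly at or near 0 counts. Of 47 others, 14 were tested, 31 had under 10 counts in every library, and 6 of those had 0 counts throughout. The genes of the C1q chains (C1QA, C1QB and C1QC) had at most 2 counts in any library, and those of the terminal components C6, C7, C8A, C8B and C9 at most 1. Among the 14 tested, 1 was higher and 4 were lower, or 35.7% called against 44.1% of all tested genes, and the median log2 fold change was -0.18, beside 0.0070 for all tested genes. Without CP+siNC replicate 1, or with library size alone as the scaling, 2 were higher. Only 4 of the 14 had a mean of 10 CPM or more, and 3 of those 4 were called, where 61.7% of all such genes were.

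CFI, which encodes the protease factor I, rose. It was at 19.3, 21.4 and 20.9 CPM in CP+siNC and at 27.3, 31.3 and 28.8 CPM in CP+siNAT10. Every CP+siNAT10 library was well above the CP+siNC range. The log2 fold change of CFI was 0.50 (SE 0.0606, edgeR quasi-likelihood test, Benjamini-Hochberg adjusted p = 7.77e-08). CFI shares 32.0% of its annotated exon bases with ENSG00000285330 on the same strand, so its counts are uncertain.

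ITGB2, the beta chain of the complement receptors CR3 and CR4, had the largest change of the 14. It was at 8.50, 8.64 and 8.05 CPM in CP+siNC and at 3.61, 3.98 and 3.67 CPM in CP+siNAT10. No library of CP+siNAT10 came near the CP+siNC range. ITGB2 had a log2 fold change of -1.16 (SE 0.108, edgeR quasi-likelihood test, Benjamini-Hochberg adjusted p = 5.75e-10). ITGB2 shares 4.46% of its exon bases with the antisense gene ITGB2-AS1, which had 1979 counts over the 6 libraries against 756 for ITGB2. The share of ITGB2 counts from those bases was not measured, so its level is uncertain. ITGAX, the alpha chain of CR4, was at 2.66 to 4.61 CPM and was not called.

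CLU, which encodes the fluid-phase inhibitor clusterin, was at 134, 131 and 130 CPM in CP+siNC and at 112, 105 and 108 CPM in CP+siNAT10. Its groups were separate, and its log2 fold change was -0.28 (edgeR quasi-likelihood test, Benjamini-Hochberg adjusted p = 1.65e-07). MASP2, the protease of the lectin pathway, was at 74.9, 70.7 and 78.4 CPM in CP+siNC and at 66.8, 61.8 and 58.7 CPM in CP+siNAT10. It also fell without overlap, by 0.26 on the log2 scale (edgeR quasi-likelihood test, Benjamini-Hochberg adjusted p = 3.70e-05). MASP2 lies across from the abundant gene TARDBP on the opposite strand, with 0 shared exon bases in the annotation, and whether counting used strand is not given in the sources used here.

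CFP, which encodes properdin, the stabiliser of the alternative pathway protease, was at 2.92, 2.06 and 2.34 CPM in CP+siNC and at 1.57, 1.60 and 1.22 CPM in CP+siNAT10. All its CP+siNAT10 libraries were below all CP+siNC libraries, with a log2 fold change of -0.74 (edgeR quasi-likelihood test, Benjamini-Hochberg adjusted p = 0.00283). CFP shares 6.02% of its exon bases with ENSG00000283743 on the same strand. C1RL, C2, C4A, C4B, C8G, SUSD4, C5AR1 and ITGAX were not called. C4A and C4B are near-identical copies, so their 11 to 28 and 16 to 38 counts per library are uncertain.

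**Figure D5:**
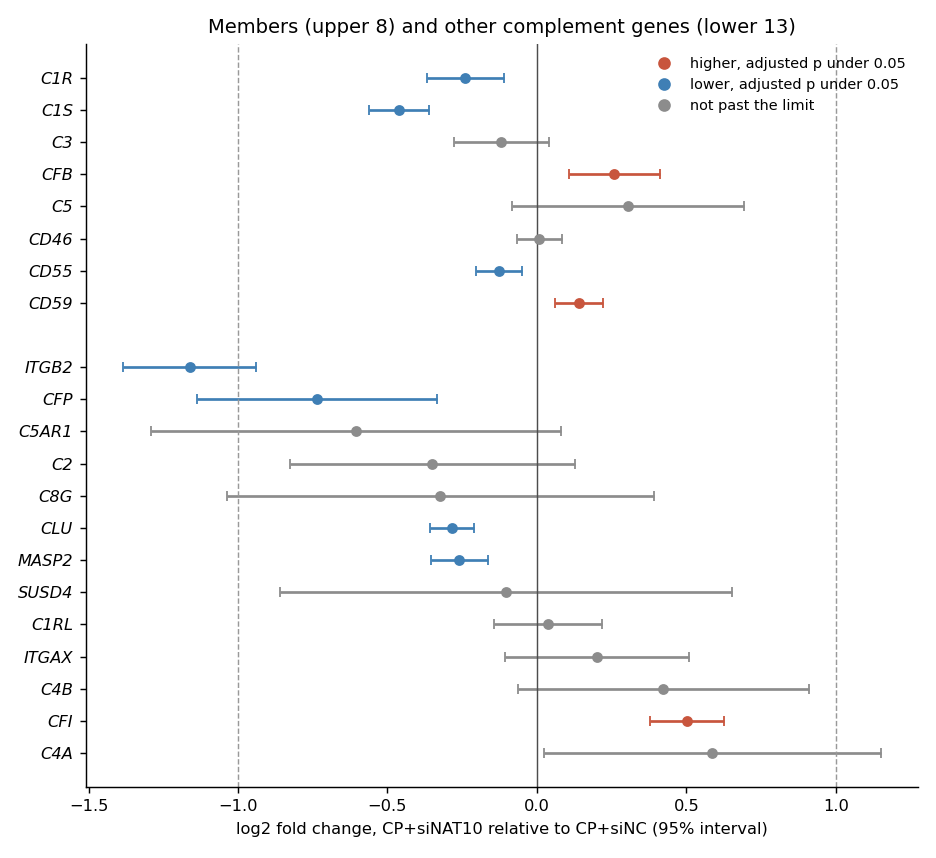
Log2 fold change, CP+siNAT10 relative to CP+siNC, with its 95% interval, for the 8 tested complement genes and 13 other complement genes, coloured by call. Dashed lines mark a log2 fold change of 1 in size, which ITGB2 passes, and the narrowest intervals are those of CD46, CD55 and CD59 among the upper 8.

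Interferons, interleukin 6 and NF-kB signalling induce several complement genes, and 22 genes of these routes were listed. Of 21 tested, 5 were higher and 9 were lower, or 66.7% called against 44.1% of all tested genes, with a median log2 fold change of -0.055. At a mean of 10 CPM or more, 11 of 17 were called (64.7%), against 61.7% of all such genes. TNF had at most 1 count in any library and was not tested. IL6R, the interleukin 6 receptor, rose from 9.93, 9.90 and 10.3 CPM to 29.4, 28.8 and 29.8 CPM (log2 fold change 1.55, edgeR quasi-likelihood test, Benjamini-Hochberg adjusted p = 1.84e-17). IL1R1, the interleukin 1 receptor, rose by a log2 fold change of 1.10 (edgeR quasi-likelihood test, Benjamini-Hochberg adjusted p = 5.53e-10). Both receptor genes passed a log2 fold change of 1, with separate groups.

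IL6 itself fell from 4.99, 5.28 and 5.87 CPM to 2.75, 3.20 and 2.60 CPM (log2 fold change -0.92, edgeR quasi-likelihood test, Benjamini-Hochberg adjusted p = 1.53e-06). IL6ST, the signalling chain gp130, had a log2 fold change of -0.60 (edgeR quasi-likelihood test, Benjamini-Hochberg adjusted p = 7.35e-14). In both genes the groups did not overlap.

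Promoters were read from RefSeq (GRCh38.p14), from 250 bases before to 50 bases after each start site, and 6 of the 9 genes matched with 12 entries. C3, C1S and SERPING1 had no entry. Motifs were searched on both strands as TTCNNNGAA (the gamma-activated site), GAAANNGAA (the core of the interferon-stimulated response element), GGGNNTTTC (NF-kB) and TTGCNNAA (C/EBP). Of all 35116 promoters, 7.66%, 8.11%, 4.78% and 10.5% held them. CFB, which rose, and C1R, which fell, both held a gamma-activated site, so their promoters are shown, with motif matches in capitals. In CFB (chr6:31945845-31946144, plus strand) the capitals mark TTCTGTTTC, the response element core on the minus strand, at -139 and TTCCGGGAA, the gamma-activated site, at -92 from the start site. In C1R (chr12:7091844-7092143, minus strand) they mark the C/EBP letters TTGCTGAA at -167 and the gamma-activated site TTCCTGGAA at -86.
CFB: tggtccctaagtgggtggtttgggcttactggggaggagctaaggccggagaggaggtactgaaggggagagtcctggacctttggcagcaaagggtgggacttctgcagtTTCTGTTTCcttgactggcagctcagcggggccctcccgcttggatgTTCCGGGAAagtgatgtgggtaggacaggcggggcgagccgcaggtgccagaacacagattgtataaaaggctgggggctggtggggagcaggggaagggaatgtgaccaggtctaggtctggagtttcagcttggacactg
C1R: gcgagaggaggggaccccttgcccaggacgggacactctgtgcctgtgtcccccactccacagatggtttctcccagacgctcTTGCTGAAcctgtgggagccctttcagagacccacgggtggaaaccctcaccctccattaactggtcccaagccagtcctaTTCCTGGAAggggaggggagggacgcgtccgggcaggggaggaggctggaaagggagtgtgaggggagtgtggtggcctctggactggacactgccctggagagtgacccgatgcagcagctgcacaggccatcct

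The other C1R promoter held a C/EBP match. CD59 had the gamma-activated letters TTCTCAGAA in 2 overlapping promoters and C/EBP matches in another. No match to the 4 motifs was in the promoter windows of C5, CD46 or CD55, and no window of the 6 genes held the NF-kB letters. Thus matches occurred beside genes called in both directions.

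The longest annotated 3′ UTR of each gene was searched for 3 heptamers that an earlier analysis of these data found in genes that fell. GACTATC was in 3.81% of 13080 tested protein-coding genes, ACTATCA was in 6.98% and CATATTC in 10.6%, and 17.3% held any of them. Among the 9 complement genes, CD55 alone had a match, to CATATTC, in capitals, at base 1137 of its 1356-base UTR (GRCh38, chr1:207360737-207360763, plus strand). C1R and C1S, which also fell, had no match. As the heptamers came from genes that fell in these same data, a match in CD55 is no support for a role. It is shown as the only match.
CD55: aggtttttacCATATTCttgtcatctt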

How the data were processed

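The authors sequenced 3 libraries per group of Cisplatin-treated HK-2 cells with a stranded mRNA kit. The submitters' processing notes name Trimmomatic 0.36, STAR 2.5.3a, featureCounts (Subread 1.5.1), edgeR 3.12.1 and GRCh38. The deposited values are raw counts per gene from the authors, with gene positions and lengths. The annotation release, the strand setting and whether the deposited counts were merged by the kit's molecular identifiers are not given in the sources used here. Of the table's genes, 92.84% were found in GENCODE 29 by identifier, 99.897% of them at an overlapping position on GRCh38. Totals were 19321665 to 25192736 counts per library, and floors cover counting error only.

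Groups and replicate numbers came from the labels. The count analysis used edgeR 4.0.16, limma 3.58.1 and R 4.3.3. Low genes were removed by filterByExpr with its minimum count at 10 and its minimum total at 15. Libraries were scaled by TMM and compared across all 19874 tested genes with glmQLFit and glmQLFTest, with Benjamini-Hochberg adjustment and no replicate term. Each SE was the size of the log2 fold change over the square root of F. A complement gene without 10 counts in 3 libraries was reported as low. The analysis was tested on simulated counts. Alternatives were other scalings, filters and tests (DESeq2 1.42.0 and edgeR's exact test), thinning to the smallest library, a replicate block, a fold limit and leaving out each library. No column of values was left out.

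The 9 genes, the lists of other complement genes, GPI anchor genes and regulators of complement transcription, the cell type markers and the UTR letters were chosen with earlier results of these data known. Named genes were NAT10, the 9 genes, the tested other complement genes (1 of them is not reported here), up to 4 called genes with the largest change from each of the other 2 lists, and the 5 profiles nearest to the complement gene with the largest change. Figures were drawn with Python 3.11.15 and matplotlib 3.10.9.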

Additional observations from a re-analysis of the deposited data

How the results depend on the processing

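At the limit on adjusted p alone, all 5 called complement genes kept direction and call under every alternative except CD55 with library size alone as the scaling and without CP+siNAT10 replicate 2, and CFB without CP+siNAT10 replicate 3. C3 passed without CP+siNC replicate 1. Leaving out each library in turn, 1 to 2 complement genes were higher and 2 to 4 were lower. Over the same 6 fits, 1 to 2 other complement genes, and 4 to 7 GPI anchor genes, were higher, and 1 to 4 GPI anchor genes were lower. Leaving out a library also turned the sign of C5, whose log2 fold change ranged from -0.00052 to 0.48, and of CD46, from -0.019 to 0.028, with -0.00095 without CP+siNC replicate 2. Neither was called.

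With library size alone, 2 other complement genes were higher. With DESeq2, 3 GPI anchor genes were higher and 1 was lower. With a log2 fold change over 1 in size also required, 0 complement genes were higher and 0 lower, as no change was that large. Under that limit, 0 other complement genes were higher and 1 was lower, 0 GPI anchor genes were higher and 0 lower, and 2 regulators of complement transcription were higher and 0 lower. Except where stated, the cause was not tested.

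The labels do not say whether same-numbered libraries of the groups were paired. Deviations of same-numbered libraries from their group means correlated at 0.026, 0.097 and -0.20 over 10076 genes. Not every library correlated best with its own number. With 3 libraries per group these correlations cannot show whether the samples were paired. With a replicate block, 5 of 5 complement calls remained, 4208 genes were higher and 4318 lower, beside 4331 and 4440 without it. The number of all tested genes that were called depended on the scaling and the tool. With library size alone 5050 genes were higher and 3786 lower, and with DESeq2 3221 were higher and 3431 lower. SERPING1 was under the floor that these library totals allow.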
